A study of Mus musculus with 11 samples.

Results

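The genes that copy DNA and supply its nucleotides were followed in 11 clonal lines of mouse granulocyte-monocyte progenitors with or without tafazzin. They are 45 genes of 37583 gene identifiers counted. The genes were chosen by name for their roles, with earlier results of these data known. They comprise the MCM helicase, the origin recognition complex (ORC), licensing and activation factors, GINS, the replicative polymerases, the clamp and its loader, the Okazaki fragment enzymes, replication protein A (RPA), 4 nucleotide supply enzymes and Uhrf1. All 45 were matched by identifier, and all 45 passed the filter on low counts, which left 11900 genes to test. The lowest mean over the 11 clones was 6.71 CPM, for Fen1, where CPM is a gene's count scaled to 1 M gene counts of its library. No member was at 0 in any clone, and the lowest raw count was 106.

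RNA was sequenced from 6 wild-type (WT) clones and 5 Taz knockout (KO) clones. Fetal liver of C57BL/6 embryos (day 15.5) was the source of every line, which was conditionally immortalised with retroviral ER-Hoxb8 and was then cloned from a single cell. ER-Hoxb8 is the homeobox factor Hoxb8 fused to the estrogen receptor's hormone-binding part. It holds myeloid progenitors in division while estrogen is present. Both genotypes therefore carry the construct, and both were kept in 0.5 uM beta-estradiol, serum and stem cell factor at about 50 ng/ml. RNA came from 5 M cells of each clone. Titles also carry a number, 1 or 2 in WT and 3 or 4 in KO, and the labels do not explain it. Each number holds clones of 1 genotype, so the genotypes cannot be compared within a number. Clones are named below by genotype and title (WT 1A, KO 3H). The labels do not say which clones share an embryo or a parent culture, so a p-value here speaks of the spread among these lines alone. The part of Taz that was deleted, and the sex of the embryos, are not given either.

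Between 19778119 and 27431544 reads were counted in genes per clone. WT libraries were deeper (25.0 ± 2.15 M, SD, n = 6) than KO libraries (21.6 ± 1.90 M, SD, n = 5, two-sided exact permutation p = 0.0303 over 462 assignments). With every library thinned to 19778119 gene counts, 9 of the 11 calls described below were kept. Taz, which encodes the cardiolipin transacylase tafazzin, stood at 37.0 to 43.8 CPM in WT and 2.21 to 4.09 CPM in KO clones, as the labels state (two-sided exact permutation p = 0.00216, the smallest that 462 assignments can give). Granulocyte-monocyte progenitor markers, among them Mpo and Elane, summed to 14127 to 23060 CPM in WT and 13226 to 20695 CPM in KO clones. Of 12 tested, 0 were called by edgeR and 0 had an unadjusted p under 0.05, and Hoxa9 was at 0 in every clone. The summed level of 14 late neutrophil markers was 1707 CPM in WT 2D, 59.3 to 221 CPM in the other WT clones and 64.0 to 227 CPM in KO clones. The summed level of 7 B cell markers was 30.9 to 50.6 CPM in WT and 5.02 to 27.9 CPM in KO clones, without overlap. Of that list Cd79b was called lower in KO (not without KO 3I), while Ms4a1 and Pax5 were at 0 in every clone. Mast cell or basophil markers summed to 1180 to 4247 CPM in WT and 2218 to 5067 CPM in KO clones. In the same order, monocyte or macrophage markers had 543 to 1175 and 970 to 1816 CPM, and erythroid markers 513 to 874 and 778 to 1086 CPM. Eosinophil markers had 67.4 to 263 and 71.6 to 131 CPM, and megakaryocyte markers 134 to 253 and 124 to 248 CPM. No marker of these further lists was called. The part of these other cell types in the results below was not tested, except that all 11 calls described next were kept in a fit that took a late neutrophil score as covariate.

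Replication starts where ORC, with Cdc6 and Cdt1, loads the MCM helicase onto DNA in G1. In S phase Mcm10, Cdc45 and GINS turn the loaded helicase into a moving fork, polymerase alpha with primase lays primers, and polymerases delta and epsilon extend them on the sliding clamp PCNA. Many of these genes are transcribed in late G1 and S phase under E2F factors, so their mRNA level is widely read as a sign of how much of a culture is cycling. In bulk RNA, fewer cells in S phase and less of these mRNAs per cell cannot be told apart.

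Members were lower in KO clones by small amounts where they were called at all. Of the 45 members, 11 were called lower and 0 higher (edgeR quasi-likelihood test, adjusted p under 0.05 over all 11900 genes). Among all tested genes 2.29% were called lower and 2.76% higher, and among the 9071 genes at or above the lowest member's mean, 2.78% were called lower. At an unadjusted p under 0.05, 23 members were lower and 0 higher, where 10.3% of all genes were lower. The other tools run called 16 lower and 0 higher (DESeq2) and 11 lower and 0 higher (limma-voom). Over all genes, calls in either direction were 601 with edgeR, 1261 with DESeq2 and 613 with limma-voom. With counts summed per title number, 2 sums against 2, edgeR called 0 members in either direction (22 lower and 0 higher at an unadjusted p under 0.05). Calls over all genes were 197 with these sums. Fold changes were negative for 38 of 45 members, beside 51.6% of all genes, and the median log2 value was -0.13 beside -0.01 for all genes. The 45 values ran from -0.28 (Gins2) to 0.08 (Orc4), so no member differed by more than 17.9% in level. In 9 members every KO clone lay below every WT clone, beside 3.02% of all genes, and all 9 were among the 11 called.

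**Figure D1:**
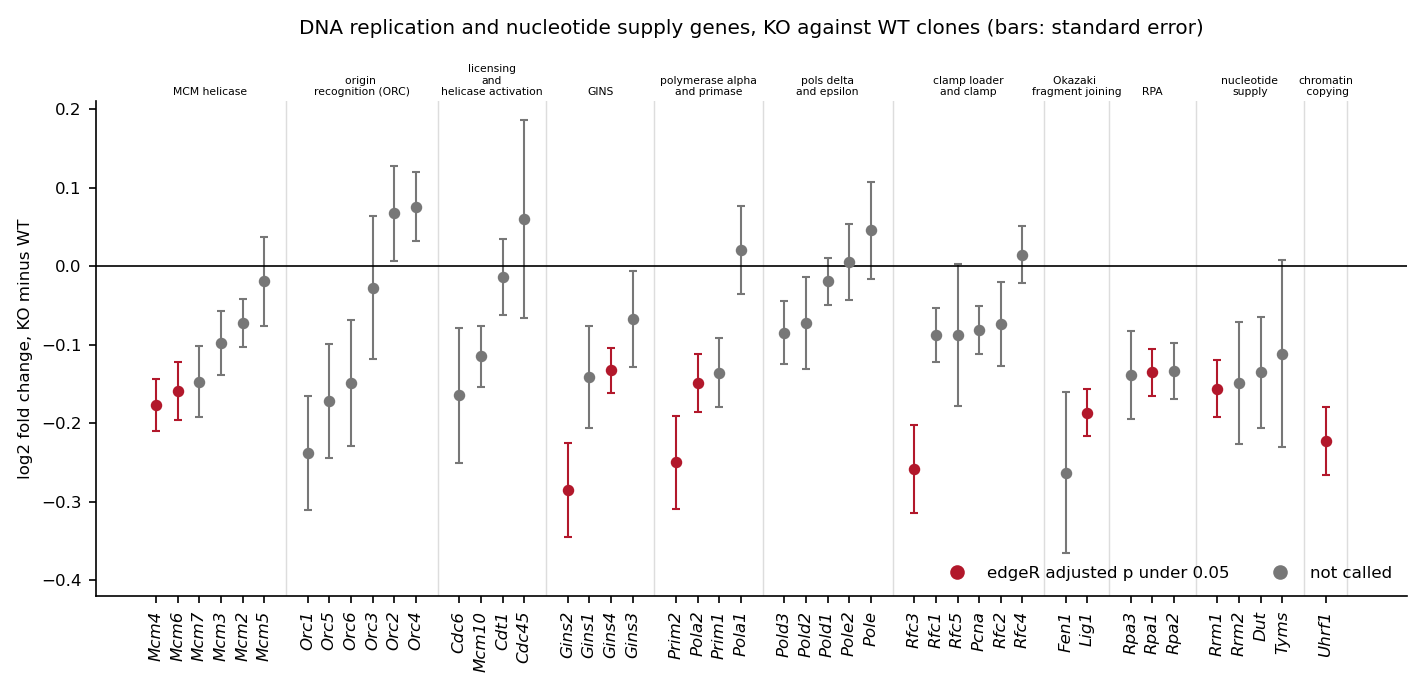
Log2 fold change of each member, KO minus WT (vertical axis), grouped by complex along the horizontal axis, with bars for the standard error and red points for members called by edgeR. Of 45 points 38 lie below 0, and the 11 red points lie between -0.28 (Gins2) and -0.13 (Gins4).

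The 11 called members were Lig1, Mcm4, Uhrf1, Gins2, Gins4, Rfc3, Rpa1, Rrm1, Mcm6, Prim2 and Pola2, in order of p. They are spread over 8 of the 11 groups of roles rather than gathered in 1 complex. Origin recognition, licensing and activation, and polymerases delta and epsilon had none. The upstream sequences of a few members show the kind of promoter these genes have. RefSeq windows of 250 bases before to 50 bases after the annotated start (build GRCm38.p6) were found for 38 of 45 members. The 250 bases upstream are given for Lig1, Uhrf1, Rfc3 and Rpa1, the called member of smallest p in 4 groups of roles, and, chosen after their values were seen, for Mcm6 (called) and Mcm5 (not called), 2 subunits of 1 helicase. Each runs 5′ to 3′ towards the start, with capitals for E2F letters (TTTGGCGC, TTTCCCGC, TTTCGCGC or TTTGCCGC, either strand) and for CCAAT on either strand.
Mcm6 (chr1:128359706-128359955, minus strand): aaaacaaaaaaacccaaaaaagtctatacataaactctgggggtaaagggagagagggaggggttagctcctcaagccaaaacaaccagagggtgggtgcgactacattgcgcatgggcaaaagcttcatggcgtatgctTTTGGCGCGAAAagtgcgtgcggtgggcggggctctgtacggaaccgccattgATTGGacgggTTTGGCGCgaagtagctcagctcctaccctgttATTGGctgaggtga
Mcm5 (chr8:75109259-75109508, plus strand): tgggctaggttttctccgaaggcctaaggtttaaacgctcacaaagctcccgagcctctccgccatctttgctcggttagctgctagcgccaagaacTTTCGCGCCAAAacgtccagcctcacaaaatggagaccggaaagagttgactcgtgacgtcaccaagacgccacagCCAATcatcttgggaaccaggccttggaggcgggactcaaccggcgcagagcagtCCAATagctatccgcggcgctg
Lig1 (chr7:13278576-13278825, plus strand): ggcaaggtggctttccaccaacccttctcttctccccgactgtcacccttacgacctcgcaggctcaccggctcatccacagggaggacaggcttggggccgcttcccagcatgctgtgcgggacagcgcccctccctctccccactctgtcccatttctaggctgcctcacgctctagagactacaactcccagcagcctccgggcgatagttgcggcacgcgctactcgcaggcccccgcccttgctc
Uhrf1 (chr17:56304063-56304312, plus strand): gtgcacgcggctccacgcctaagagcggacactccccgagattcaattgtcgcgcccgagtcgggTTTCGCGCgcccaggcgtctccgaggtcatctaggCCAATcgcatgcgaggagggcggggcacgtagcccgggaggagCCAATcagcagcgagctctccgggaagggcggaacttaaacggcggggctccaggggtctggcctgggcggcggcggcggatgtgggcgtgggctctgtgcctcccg
Rfc3 (chr5:151651209-151651458, minus strand): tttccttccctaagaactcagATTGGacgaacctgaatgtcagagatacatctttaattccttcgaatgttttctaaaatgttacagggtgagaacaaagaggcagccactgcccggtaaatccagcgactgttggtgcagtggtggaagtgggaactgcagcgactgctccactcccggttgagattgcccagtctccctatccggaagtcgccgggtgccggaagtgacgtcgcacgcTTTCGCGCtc
Rpa1 (chr11:75348384-75348633, minus strand): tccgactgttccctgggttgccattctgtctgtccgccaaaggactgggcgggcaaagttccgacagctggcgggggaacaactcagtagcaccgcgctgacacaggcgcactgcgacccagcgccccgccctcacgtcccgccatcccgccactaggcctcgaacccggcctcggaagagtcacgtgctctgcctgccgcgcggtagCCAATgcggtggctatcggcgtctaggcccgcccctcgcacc
Mcm6 and Mcm5 both hold overlapping E2F letters facing each other and a pair of CCAAT boxes. Mcm6 has a further run of E2F letters between its CCAAT boxes, and Mcm5 a further CCAAT past the start, not shown. Of these 2 subunits only Mcm6 was called. Uhrf1 has a single run of E2F letters well upstream and a pair of CCAAT boxes downstream of it, in 1 of its 2 windows, while Rfc3 has its E2F letters next to the start. The window used for Lig1, 1 of its 3, has an E2F match past the start and none in the bases shown, and Rpa1 has a CCAAT box and no E2F match.

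Over whole windows, E2F letters were found in 16 of 38 members (42.1%), against 704 of 27025 genes with a window (2.61%). CCAAT was found in 24 members (63.2%, all genes 41.1%), and TTTGAA, the core of the cell cycle homology region of mitotic promoters, in 5 members (13.2%, all genes 20.2%). The 16 members with E2F letters had a median of -0.09 (log2) with 4 called lower (Lig1, Uhrf1, Rfc3 and Mcm6), and the 22 without had -0.12 with 3 called lower (Rpa1, Rrm1 and Pola2). A match is a description of letters, not a bound site. Gins1, Gins2, Gins4, Mcm4, Pole, Prim2 and Rfc2 had no window.

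The MCM helicase, the ring of Mcm2 to Mcm7 that unwinds DNA at the fork, was negative in all 6 subunits (median log2 fold change -0.12), and 2 were called. Mcm4 had 443 to 481 CPM in WT clones (median 467), and 412, 387, 425, 416 and 420 CPM in KO 3H, 3I, 4J, 4K and 4L. All KO clones were below the lowest WT clone. The level fell by 11.5% (log2 fold change -0.18 ± 0.03 SE, adjusted p = 0.0154), and Mcm4 was called whichever single clone was left out (adjusted p 0.00835 to 0.0405). Mcm6 had 924 to 1028 CPM in WT (median 989), and 882, 857, 906, 911 and 850 CPM in the KO clones. These did not overlap either, though WT 2D at 924 and KO 4K at 911 CPM were close. Mcm6 fell by 10.4% (log2 fold change -0.16 ± 0.04 SE, adjusted p = 0.0354). That call was kept only without WT 1A or WT 2D and was lost when any 1 of the other 9 clones was left out (adjusted p up to 0.101).

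The remaining MCM subunits were not called by edgeR. Mcm7 had a log2 difference of -0.15 ± 0.04 (adjusted p = 0.0909), Mcm3 -0.10 ± 0.04 (0.202) and Mcm2 -0.07 ± 0.03 (0.202). Mcm7 was called by edgeR without WT 2D (adjusted p = 0.0146) and by DESeq2 with all clones (adjusted p = 0.0229). Its exons overlap Ap4m1 and Cops6 on the other strand, and since strand was ignored in counting, reads from the overlap cannot be told apart. Mcm5 stood apart, at -0.02 ± 0.06. The KO clones had 585, 721, 588, 583 and 578 CPM against 604 to 638 CPM in WT, so 4 KO clones were below every WT clone and KO 3I was above them all. Without KO 3I the log2 fold change of Mcm5 was -0.08 (adjusted p = 0.153).

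Per kilobase of the principal transcript, Mcm6 had the highest WT level of the 6 (338 ± 14.8 CPM per kb, SD, n = 6), then Mcm3 (226 ± 10.3), Mcm5 (183 ± 4.34), Mcm7 (172 ± 11.1), Mcm2 (167 ± 3.73) and Mcm4 (130 ± 4.04). The neighbours Mcm5 and Mcm7 did not differ beyond their spread, nor did Mcm7 and Mcm2. With the summed length of all exons Mcm6 was still highest (211 CPM per kb), but Mcm2 was lowest (80.9) and Mcm4 was the fourth (130), so the order below Mcm6 depends on the length used.

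ORC, the complex of 6 subunits that marks origins, had 0 called by edgeR in either direction, with 2 lower at an unadjusted p under 0.05 (Orc1 and Orc5), and DESeq2 called Orc1 only. Its median log2 fold change was -0.09. Orc1, the largest subunit, had the lowest fold change of the 6. It had 32.5 to 43.3 CPM in WT (median 37.6), and 31.4, 29.8, 32.04, 30.9 and 34.4 CPM in KO clones. KO 4L lay above WT 2E and WT 2F, so the genotypes overlapped (log2 fold change -0.24 ± 0.07 SE, adjusted p = 0.0915). Without WT 2E, the lowest WT clone, Orc1 was called (log2 fold change -0.28, adjusted p = 0.0424). Orc5 (-0.17 ± 0.07, adjusted p = 0.2098) and Orc6 (-0.15 ± 0.08, 0.330) had negative values, Orc3 was near 0 (-0.03 ± 0.09), and Orc2 (0.07 ± 0.06) and Orc4 (0.08 ± 0.04) were positive. Orc1 was the least abundant per kilobase in WT (12.4 ± 1.26 CPM per kb, SD, n = 6; Orc3 was highest with 58.3 ± 7.60), but with all exons together Orc4 was the least abundant (8.27 against 10.8 for Orc1) and Orc2 the most (40.4 against 22.0 for Orc3).

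The licensing and activation factors Cdc6, Cdt1, Mcm10 and Cdc45 also had 0 called by edgeR, with 1 lower at an unadjusted p (Mcm10, which DESeq2 called). Mcm10, the factor that helps the helicase start, had 155 to 173 CPM in WT (median 162), and 146, 142, 157, 157 and 150 CPM in KO clones. The top of the KO range overlapped the bottom of the WT range (log2 fold change -0.11 ± 0.04 SE, adjusted p = 0.119). Cdc6 had -0.16 ± 0.09 (adjusted p = 0.313) and Cdt1 -0.01 ± 0.05. Cdc45, the helicase's partner subunit, had the widest spread of all 45 members within a genotype (SD 0.23 on the log2 scale, against a median of 0.09 over members).

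High and low values of Cdc45 occurred in both genotypes. In the WT clones, from 1A to 2F, it had 124, 98.0, 99.5, 126, 89.2 and 112 CPM, and in the KO clones, from 3H to 4L, 123, 94.9, 126, 89.4 and 130 CPM. The clones above 120 CPM were WT 1A and 2D and KO 3H, 4J and 4L. Orc3 had its 5 highest values in those same clones (153 and 158 CPM in WT, 140, 136 and 142 CPM in KO). The late neutrophil marker score, a mean of centred log2 CPM, was 1.17, 0.76, -1.25, 4.19, -2.26 and 0.30 in the WT clones and 0.36, -2.15, -0.47, -2.16 and 1.51 in the KO clones, in the same order. With that score as a covariate Cdc45 was still not called (log2 difference 0.16, adjusted p = 0.235).

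GINS joins Cdc45 and MCM to form the active helicase. All 4 subunits were negative (median -0.14) and 2 were called. Gins2 had 54.2 to 66.7 CPM in WT (median 56.5), and 49.4, 45.8, 49.0, 46.1 and 50.0 CPM in KO clones, all below the WT range. It showed the largest fold change of the 45 and fell by 17.9% (log2 fold change -0.28 ± 0.06 SE, adjusted p = 0.0248). The call was lost without KO 3H, 3I, 4J or 4K (adjusted p up to 0.0746). Exons of Gins2 overlap Gse1 on the other strand, which had 84.7 CPM in WT and 92.8 CPM in KO clones and was not called.

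Gins4 had a narrow range of 67.4 to 72.0 CPM in WT (median 71.0), and 66.1, 64.4, 63.6, 62.8 and 64.5 CPM in KO clones. Only 1 WT clone, 1A, came near the KO clones. Gins4 fell by 8.79% (log2 fold change -0.13 ± 0.03 SE, adjusted p = 0.0275) and had the smallest spread within genotypes of all members (SD 0.03 on the log2 scale). Its call was kept only without WT 1A, WT 2D, WT 2E or KO 3H, and was lost when any 1 of the other 7 was left out (adjusted p up to 0.0786). Gins1 (-0.14 ± 0.06, adjusted p = 0.250) and Gins3 (-0.07 ± 0.06, 0.582) were not called.

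Polymerase alpha and primase make the RNA-DNA primers of each new strand. Of their 4 subunits 2 were called. Prim2, the large primase subunit, had 59.7 to 72.8 CPM in WT (median 65.9), and 57.0, 51.7, 61.2, 51.6 and 56.0 CPM in KO clones. KO 4J was above WT 2E, so the genotypes overlapped by 1 clone, and Prim2 fell by 15.9% (log2 fold change -0.25 ± 0.06 SE, adjusted p = 0.0375). The call was kept only without WT 2D, WT 2E or KO 4J, and was lost when any 1 of the other 8 was left out (adjusted p up to 0.102). Pola2, the regulatory B subunit, had 115 to 127 CPM in WT (median 120), and 110, 103, 104, 111 and 113 CPM in KO clones, with no overlap.

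Pola2 fell by 9.77% and had the weakest call of the 11 (log2 fold change -0.15 ± 0.04 SE, adjusted p = 0.0444), kept only without WT 1A or WT 2E and lost when any 1 of the other 9 was left out (adjusted p up to 0.122). Prim1, the catalytic primase subunit, had a like value without a call (-0.14 ± 0.04, adjusted p = 0.105), and DESeq2 called it (adjusted p = 0.0380). Pola1, the catalytic polymerase subunit on the X chromosome, had 0.02 ± 0.06 (adjusted p = 0.880).

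Polymerases delta and epsilon, which synthesise the bulk of the lagging and leading strands, had the median nearest 0 of the 11 groups. None of the 5 subunits among the members was called by edgeR or DESeq2, and 0 had an unadjusted edgeR p under 0.05. The small subunits Pold4, Pole3 and Pole4 are not members and were tested in another list below. Of them, edgeR called Pole4 higher (0.12 ± 0.03, adjusted p = 0.0307) and did not call Pold4 or Pole3. The median log2 fold change was -0.02. Pold3, an accessory subunit of polymerase delta, had the smallest p. It stood at 105 to 118 CPM in WT (median 110), and at 105, 103, 104, 102 and 110 CPM in KO clones. KO 4L came close to the WT median (log2 fold change -0.08 ± 0.04 SE, adjusted p = 0.261). The catalytic subunits had -0.02 ± 0.03 (Pold1) and 0.05 ± 0.06 (Pole). Pold2 had -0.07 ± 0.06 and Pole2 0.01 ± 0.05.

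The clamp loader, replication factor C, opens the PCNA ring and places it on primed DNA. Of its 5 subunits 1 was called. Rfc3 had 56.2 to 65.6 CPM in WT (median 62.4), and 50.7, 49.0, 58.6, 49.4 and 52.1 CPM in KO clones. KO 4J was above WT 2D, the lowest WT clone, and the other 4 KO clones were below all WT clones. Rfc3 fell by 16.4% (log2 fold change -0.26 ± 0.06 SE, adjusted p = 0.0290). The call was kept only without WT 2D, WT 2E or KO 4J, and was lost when any 1 of the other 8 was left out (adjusted p up to 0.0809).

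Other loader subunits were not called. Rfc1, the large subunit, had -0.09 ± 0.03 (adjusted p = 0.181), Rfc5 -0.09 ± 0.09, Rfc2 -0.07 ± 0.05 and Rfc4 0.01 ± 0.04. Pcna, the clamp, had -0.08 ± 0.03 (adjusted p = 0.165), with 227 to 243 CPM in WT and 217 to 231 CPM in KO clones. Only KO 4J, at 231 CPM, lay within the WT range. Pcna was the most abundant of these 6 per kilobase by either length (154 ± 4.97 CPM per kb of principal transcript in WT, SD, n = 6).

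Okazaki fragments are trimmed by the flap nuclease Fen1 and sealed by DNA ligase 1. Lig1 had the smallest p of all members. WT clones held 288 to 312 CPM (median 303), and KO clones 270, 263, 260, 271 and 259 CPM. Every KO clone was below the lowest WT clone. Lig1 fell by 12.1% (log2 fold change -0.19 ± 0.03 SE, adjusted p = 0.00748) and was called whichever clone was left out (adjusted p 0.00371 to 0.0273). Exons of Lig1 overlap Zswim9 on the other strand, which stood at only 4.54 CPM in WT and 5.15 CPM in KO clones and was not called. Fen1 had 6.52 to 8.25 CPM in WT and 5.32 to 6.76 CPM in KO clones (log2 fold change -0.26 ± 0.10, adjusted p = 0.175). Its WT level of 3.06 ± 0.28 CPM per kb, against 94.9 ± 3.09 for Lig1 (SD, n = 6), was the lowest of the 45, also with all exons together. In the annotation used for names its exons overlap Tmem258 (92.3 CPM in WT, 83.7 CPM in KO clones, not called) and Gm10143 on the other strand. The deposited totals put ambiguous reads, which fit more than 1 gene, outside the gene counts, and how far this lowers the Fen1 counts was not tested.

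RPA, which coats single-stranded DNA, had nearly equal fold changes in its 3 subunits, of which edgeR called 1. Rpa1, the large DNA-binding subunit, had 299 to 325 CPM in WT (median 308), and 288, 273, 284, 292 and 277 CPM in KO clones. The genotypes did not overlap, with KO 4K at 292 and WT 1C at 299 CPM. Rpa1 fell by 8.95% (log2 fold change -0.14 ± 0.03 SE, adjusted p = 0.0295). Rpa1 kept its call only without WT 1C, WT 2D, WT 2E or KO 4K, and lost it when any 1 of the other 7 was left out (adjusted p up to 0.0854). Rpa2 had -0.13 ± 0.04 (adjusted p = 0.0612) and was called by edgeR without WT 2D (adjusted p = 0.0402) or KO 4J (0.0213), and by DESeq2 with all clones (0.0063). KO 4J, at 154 CPM, was the only KO clone of Rpa2 inside the WT range of 149 to 158 CPM. Rpa3 had -0.14 ± 0.06 (adjusted p = 0.191).

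Deoxynucleotides come from ribonucleotide reductase, made of Rrm1 and Rrm2, and thymidylate from the enzymes Tyms and Dut. All 4 were negative (median -0.14), and Rrm1 was called. It had 710 to 807 CPM in WT (median 782), and 677, 681, 704, 705 and 695 CPM in KO clones. WT 2D, at 710 CPM, was close to KO 4K, at 705 CPM. Rrm1 fell by 10.3% (log2 fold change -0.16 ± 0.04 SE, adjusted p = 0.0353), a call kept only without WT 1C or WT 2D and lost when any 1 of the other 9 clones was left out (adjusted p up to 0.0954). Rrm2, the subunit whose level follows S phase, had a like fold change and a wider spread (-0.15 ± 0.08, adjusted p = 0.313, 284 to 352 CPM in WT and 271 to 346 CPM in KO clones). Dut had -0.13 ± 0.07 (adjusted p = 0.316) and Tyms -0.11 ± 0.12 (0.650).

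Uhrf1 reads hemimethylated DNA behind the fork and brings in the methyltransferase Dnmt1. WT clones had 307 to 353 CPM (median 330), and KO clones 273, 285, 273, 295 and 284 CPM, all below the WT range. Uhrf1 fell by 14.3% (log2 fold change -0.22 ± 0.04 SE, adjusted p = 0.0175). Its call was lost without KO 3H or KO 4J (adjusted p up to 0.0513).

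**Figure D2:**
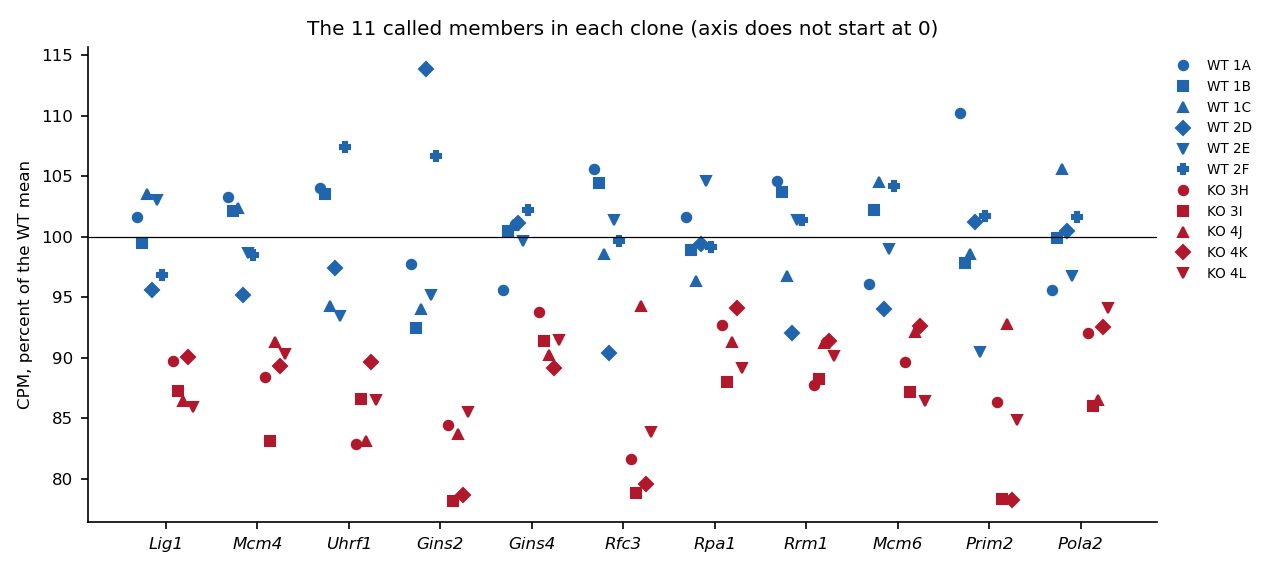
CPM of the 11 called members in each clone as a percentage of that gene's WT mean (vertical axis, not starting at 0), with WT clones in blue and KO clones in red. Red and blue points do not meet for 9 genes, and for Rfc3 and Prim2 the KO 4J point lies above the lowest WT point.

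**Figure D3:**
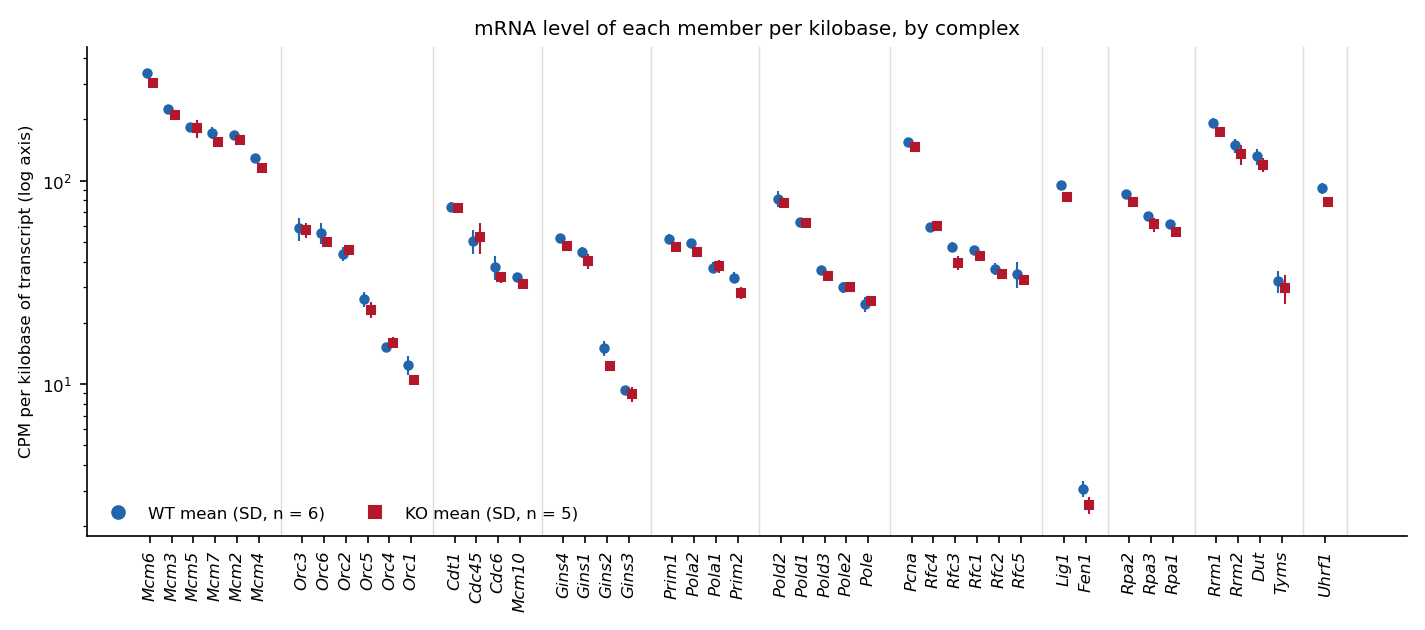
Mean level of each member in WT (blue, n = 6) and KO (red, n = 5) clones in CPM per kilobase of the principal transcript, on a log axis, with bars for the SD, grouped by complex in the order used above. Mcm6 is highest (338 in WT) and Fen1 lowest (3.06 in WT), and the difference between genotypes is small beside the difference between genes.

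Counts of called members changed with the clones included. Leaving out 1 clone at a time gave 3 to 12 called lower and 0 called higher: 7 without WT 1A, 4 without 1B, 6 without 1C, 12 without 2D, 10 without 2E and 4 without 2F, then 3 without KO 3H, 3 without 3I, 5 without 4J, 4 without 4K and 4 without 4L. Lig1 and Mcm4 were called in all 11 of these fits. The median log2 fold change of the members stayed between -0.13 and -0.11 in them. Over all tested genes, calls in either direction changed too, from 601 with all clones to 240 to 739 without 1 clone. Without all clones of title number 1, 3 or 4 no member was called by edgeR (14, 16 and 15 at an unadjusted p under 0.05, all lower), and without title number 2 there were 4. Over all tested genes, only 45, 92 and 32 were called without title numbers 1, 3 and 4, and 296 without number 2.

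**Figure D4:**
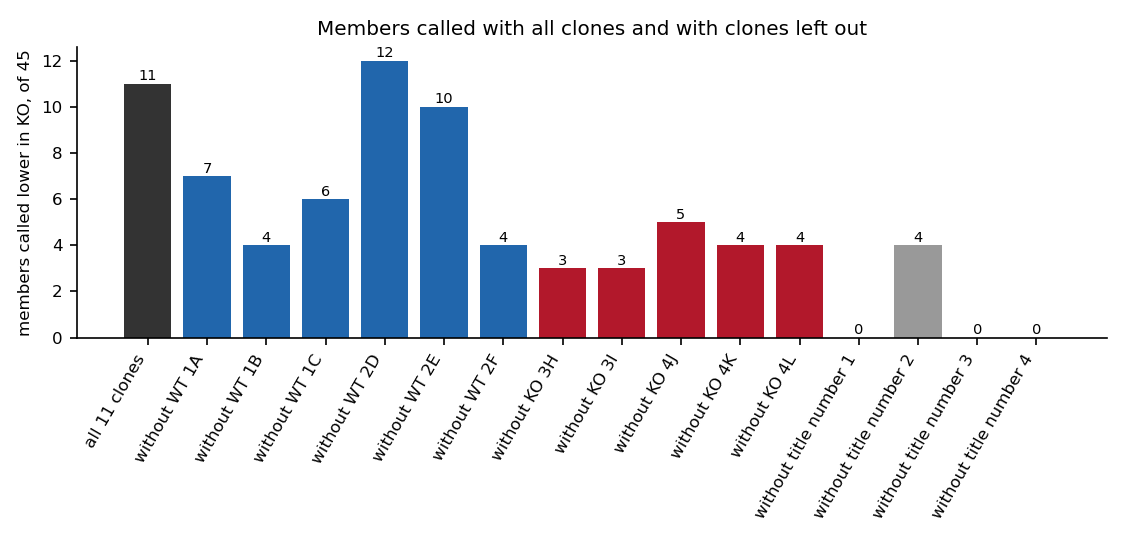
Number of the 45 members called lower in KO (vertical axis) with all clones (black), without 1 WT clone (blue), without 1 KO clone (red) and without all clones of 1 title number (grey). The count is 11 with all clones, 3 to 12 without 1 clone, and 0 without title number 1, 3 or 4. Calls over all tested genes, not drawn, were 601, 240 to 739, and 45, 92 and 32 in the same order.

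Title numbers within a genotype gave no calls among the members. For number 2 against 1 in WT, 0 of 45 members were called and 0 had an unadjusted p under 0.05 (edgeR, all genes 0% and 3.13%), and log2 differences had a median of -0.01 and ran from -0.16 to 0.15. For number 4 against 3 in KO the counts were again 0 and 0 (all genes 0% and 1.35%), with a median of 0.03 and a range of -0.16 to 0.15. Each clone's mean centred log2 CPM over the 45 members was 0.11 in WT 1A, 0.03 in 1B, 0.02 in 1C, 0.06 in 2D, 0.02 in 2E and 0.04 in 2F. In KO clones it was -0.05 in 3H, -0.09 in 3I, -0.03 in 4J, -0.07 in 4K and -0.04 in 4L. The genotypes did not overlap on this mean. WT 1A was the highest of the 11 clones for 18 members and KO 3I the lowest for 16.

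**Figure D5:**
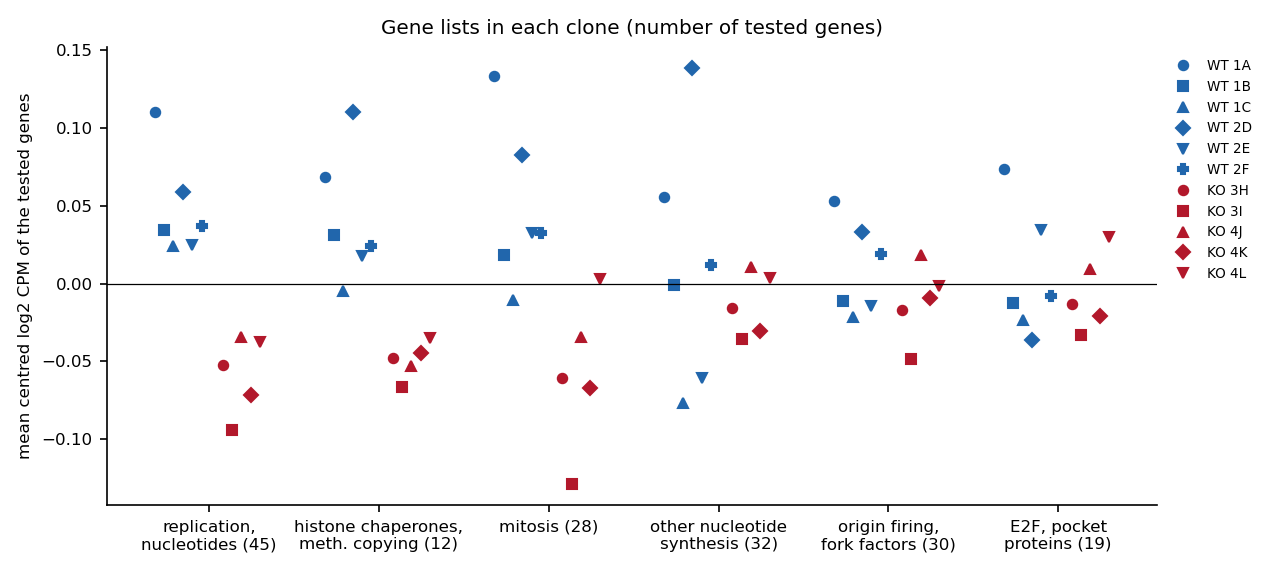
Mean centred log2 CPM of each gene list (vertical axis) in each WT clone (blue) and KO clone (red), with the number of tested genes after each name. Genotypes are apart for the 45 replication and nucleotide genes and for the 12 histone chaperone genes, and overlap for the other 4 lists.

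Neighbouring lists were set beside the members. Of all tested genes 2.29% were called lower and 2.76% higher. The histone chaperones and methylation copying factors, which rebuild chromatin behind the fork, had 3 of 12 called lower, 0 higher and a median of -0.10 on the log2 scale. At an unadjusted p under 0.05, 7 were lower and 0 higher, beside 10.3% of all genes lower. In 4 every KO clone lay below every WT clone, beside 3.02% of all genes. Chaf1a, of the chromatin assembly factor that follows PCNA, had -0.19 ± 0.03 (adjusted p = 0.0111), Asf1b, which hands on new histones, -0.16 ± 0.03 (0.0239) and Hat1, which acetylates new histone H4, -0.20 ± 0.04 (0.0249). Chaf1a was called in all 11 fits without 1 clone, Asf1b in all but those without KO 3I or KO 4J, and Hat1 only with all KO clones present. The list's count ran from 1 (without KO 3I or KO 4J) to 3. Among 32 tested nucleotide synthesis and salvage enzymes, 1 was called higher, near the 2.76% of all genes, and the median was -0.03. Shmt2, the mitochondrial serine enzyme of the folate cycle, was higher (0.47 ± 0.11, adjusted p = 0.0323, 474 to 746 CPM in WT and 692 to 851 CPM in KO clones). Shmt2 kept its call only without WT 2D or KO 4K, and the list had 4 called higher without WT 2D, 2 without KO 4K and 0 when any other clone was left out.

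Among 30 origin firing and fork factors 0 were called lower and 1 higher by edgeR, with a median of 0.00 and 3 lower and 2 higher at an unadjusted p under 0.05. Of all genes 2.76% were called higher and 10.3% were lower at an unadjusted p, so the 1 and the 3 are near those shares. Pole4, a small histone-fold subunit of polymerase epsilon, was the gene called (0.12 ± 0.03, adjusted p = 0.0307, 61.9 to 65.1 CPM in WT and 67.9 to 70.9 CPM in KO clones), and its call was kept only without WT 1A, WT 2D or WT 2E, with 2 of the list called higher without WT 2D. Of 19 E2F and pocket protein genes E2f1, the activating factor of S phase genes, was called lower (-0.20 ± 0.04, adjusted p = 0.0145) and lost its call only without KO 3I. It had 57.9 to 62.7 CPM in WT (median 60.4), and 55.2, 51.1, 54.6, 52.9 and 49.7 CPM in KO clones, with no overlap. E2f1 was the only call of its list, beside 2.29% of all genes called lower, and the list's median was -0.02. Mitosis genes were negative in 26 of 28 (median -0.10), with 2 called lower and 1 higher, the latter near the share of all genes. At an unadjusted p under 0.05, 13 were lower and 1 higher, beside 10.3% of all genes lower. Of 6 without overlap between genotypes 5 were lower, beside 3.02% of all genes. Cdc20, the activator of the anaphase-promoting complex, had -0.26 ± 0.06 (adjusted p = 0.0413) and Kif20a, a kinesin of cytokinesis, -0.25 ± 0.06 (0.0412). Cdc20 kept its call only without WT 2D, WT 2E or KO 4L, and Kif20a only without WT 2E or KO 4L. Top2a, the topoisomerase that untangles chromosomes, was higher (0.10 ± 0.03, adjusted p = 0.0479) but was called in 0 of the 11 fits without 1 clone. In those fits the mitosis list had 0 to 3 called lower, and 0 in all but those without WT 2D, WT 2E or KO 4L.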

How the data were processed

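RNA of 11 clones (6 WT, 5 KO by the genotype in the labels) was sequenced after polyA selection with a strand-specific kit, per the labels' protocols. For each clone the authors deposited a file of raw counts by Ensembl gene. STAR, HTSeq, edgeR and build mm9 are named without versions or roles, per the submitters' processing notes. Per the deposited files' names, strand was ignored in counting, so genes overlapping on opposite strands cannot be told apart. Classes that name no gene entered neither library sizes nor fits: unassigned reads were 5.41 to 6.94% and ambiguous reads 2.70 to 2.93% per clone.

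Of 37583 identifiers 32860 (87.4%, with 99.6% of counts) were matched to symbols in GENCODE M21 (GRCm38), used only for names, chromosome, lengths and overlaps. Beside the overlaps named above, exons of Orc1, Orc2, Orc4, Orc5, Orc6, Cdc45, Pole, Rfc2, Rfc4 and Rfc5 overlap another gene there. None of these members was called by edgeR with all clones, and the effect of the overlaps was not tested. The test was edgeR's quasi-likelihood F test, robust, between genotypes (TMM, filterByExpr, Benjamini-Hochberg over 11900 genes, called at an adjusted p under 0.05), checked on simulated counts. CPM values are on TMM-scaled depths, with a prior count of 2 on the log2 scale. Each standard error is the size of the log2 difference divided by the root of its F statistic. Title numbers were contrasted in a model of 4 set means. Promoter windows are RefSeq's (GRCm38.p6). Versions were edgeR 4.0.16, DESeq2 1.42.0 and limma 3.58.1 under R 4.3.3, with figures from matplotlib 3.10.9 under Python 3.11.15.

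The members and lists were chosen with earlier results of these data known, so lists are described by counts and medians with no test. Per-clone values are given for called members and for the member of smallest p in groups with none called. From other lists up to 3 called genes are named, with per-clone values for E2f1 only and ranges for Shmt2 and Pole4. Per-clone values of Mcm5, Cdc45 and Orc3, and levels over all exons, were chosen after the values were seen. Alternatives were 2 other normalisations, 2 filters, a non-robust fit, DESeq2, limma-voom, title numbers as a random block, as sums and as set means, leaving out clones or title numbers, equal depth, and a late neutrophil covariate. Some results of the nucleotide synthesis and salvage list are not reported here.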

Additional observations from a re-analysis of the deposited data

Results flagged for a closer look

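Each of the 45 members was looked at in both genotypes for 1 clone far from the others (Dixon's criterion at 95%, 90 groups, of which chance flags about 1 in 20), and 6 values stood out. In KO clones Mcm5 was high in KO 3I (721 CPM, the others 578 to 588 CPM). Mcm7 was high in KO 4K (474 CPM, the others 453 to 458 CPM), and Pcna was high in KO 4J (231 CPM, the others 217 to 220 CPM). Orc2 was low in KO 4K (146 CPM, the others 165 to 170 CPM). In WT clones Pold2 was high in WT 2D (157 CPM, the others 126 to 134 CPM) and Rpa2 was low there (149 CPM, the others 155 to 158 CPM). WT 2D is also the clone with the high late neutrophil markers. None of these 6 members was called by edgeR between genotypes with all clones included.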

How the results depend on the processing

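The 11 calls among the members stayed 11 with RLE size factors, a stricter filter, a non-robust fit and limma-voom, and were 10 with upper-quartile normalisation, 9 at equal depth, 14 with the late neutrophil covariate and 16 with DESeq2. They were 5 with no filter, 5 as set means, 21 with the title number as a random block (consensus correlation -0.215), 0 with counts summed per title number (22 at an unadjusted p under 0.05), 3 to 12 without 1 clone, and 0, 4, 0 and 0 without title numbers 1, 2, 3 and 4. No setting called a member higher. The members' median log2 fold change stayed between -0.14 and -0.10, and was -0.10 without title number 3. In KO against WT, all genes, 601 calls became 329 with no filter, 1261 with DESeq2, 1983 with the random block, 197 with sums, 307 as set means, 952 with the covariate, 240 to 739 without 1 clone, and 45, 296, 92 and 32 without title numbers 1 to 4. Title numbers within a genotype gave 0 calls, and 0 to 1 without 1 clone. Where fewer clones or sums enter, fewer samples remain; the cause of the other changes was not tested. No called member changed sign. Of the uncalled, Pole2 did in 12 settings, Cdt1 and Pola1 in 6, Orc3 in 5, Mcm5 and Rfc4 in 3 and Pold1 in 1. No paired analysis was possible because WT and KO titles share no number. At equal depth Pola2 and Prim2 lost their calls.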
